A study of Homo sapiens with 15 samples.

Results

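HAND1 and HAND2 are paralogous transcription factors of the basic helix-loop-helix family, and here they were followed by bulk RNA sequencing while H1 cells, a line of human embryonic stem cells, were differentiated toward cardiomyocytes. The members were the 2 rows that carry these symbols among the 60605 genes of the deposited table, HAND1 (ENSG00000113196) and HAND2 (ENSG00000164107), and both were above the filter that left 21206 genes (FPKM of at least 1 in at least 1 library). They were chosen by their FPKM levels in these same libraries, so their levels and ratios are given as a description, with no test.

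All cells were wild-type H1 cells, an established line. They were treated on Day 0 with CHIR99021, which activates WNT signaling, and on Day 1 with insulin, and 1 library each from Days 0, 1 and 2 is common to all arms. NP-ctrl cells were then left in static culture without an inducer (NP, not passaged). NP-IWP2 cells remained in static culture with IWP2, which blocks WNT secretion, present from Day 2 to Day 4. Passaged cells were dissociated with EDTA on Day 2 and replated without IWP2 into fresh wells coated with Matrigel, a basement membrane extract. Replating lowered cell density at the same time, so the arm differs from static culture in more than dissociation, and these cannot be told apart here. The study states that the ROCK inhibitor Y27632, which helps dissociated cells survive, was used in all differentiation experiments after its survival tests. The RNA sequencing is reported after that statement, though the description of these arms does not name Y27632. Whether insulin was added at replating was not given in the sources used here. Each arm had 1 library on each of Days 3, 5, 7 and 10, which gives 15 libraries with no replicate of any arm and day. Whether the libraries of 1 arm came from the same culture was not given in the sources used here.

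HAND proteins bind DNA as dimers with broadly expressed E-proteins such as TCF3, TCF4 and TCF12, at the sequence called the E-box. ID proteins lack a DNA-binding region and hold E-proteins in inactive pairs. In the embryo HAND1 marks lateral plate and extraembryonic mesoderm and later the left ventricle, whereas HAND2 is known for the second heart field, the right ventricle, the outflow tract, the limb bud and sympathetic neurons. BMP signaling acts upstream of both genes in several tissues, and GATA4 acts on a cardiac enhancer of HAND2.

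On GRCh38, HAND1 lay on chromosome 5 from 154474972 to 154478227 and HAND2 on chromosome 4 from 173524969 to 173530229, both on the minus strand. Their main transcripts had 2 exons each, with a coding length of 645 and 651 bases including the stop codon. The 250 bases before each start site are shown because the 2 genes followed different courses after Day 2, and so that the letters before the start sites can be set side by side. The sequences are from RefSeq (GRCh38.p14), read 5′ to 3′ along the minus strand, chr5:154478228-154478477 for HAND1 and chr4:173530230-173530479 for HAND2. Capitals mark matches to the E-box CANNTG and to GATAA, the core of the GATA motif, searched on both strands.
HAND1: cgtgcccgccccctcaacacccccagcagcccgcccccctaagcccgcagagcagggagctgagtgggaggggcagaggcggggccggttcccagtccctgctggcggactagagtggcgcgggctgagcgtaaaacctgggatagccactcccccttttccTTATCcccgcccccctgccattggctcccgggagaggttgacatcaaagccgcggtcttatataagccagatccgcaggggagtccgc
HAND2: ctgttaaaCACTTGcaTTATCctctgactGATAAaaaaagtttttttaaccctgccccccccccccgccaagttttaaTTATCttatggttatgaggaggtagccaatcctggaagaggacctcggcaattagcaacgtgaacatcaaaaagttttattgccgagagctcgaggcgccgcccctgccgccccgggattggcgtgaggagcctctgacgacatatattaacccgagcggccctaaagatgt
The HAND1 window held no E-box and 1 GATAA match, and the HAND2 window held 1 E-box and 3 GATAA matches. Of 35116 promoter windows of this length, 61.8% held an E-box, 20.4% held at least 1 GATAA and 0.675% held at least 3. A CTTTGAT match (the TCF/LEF core, the motif of WNT effectors, not in capitals) occurred 1 time in the HAND1 window and was not among the letters of the HAND2 window, and 2.26% of all windows held it. TATAA occurred 2 times before HAND1, as overlapping matches on opposite strands, and not in the HAND2 window (18.9% of windows held at least 1 and 7.73% at least 2). CCAAT occurred 1 time before HAND1 and 2 times before HAND2 (32.0% of windows held at least 1 and 9.53% at least 2). GC content was 67.2% for HAND1 and 49.6% for HAND2. The motifs were chosen with these sequences in view, and a match is a description, not a binding site.

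Total counts per library lay between 13254723 and 20250115 with a median of 15269132. At this depth 3 counts corresponded to an FPKM (counts scaled by exonic length and library total) of 0.0871 to 0.133 for HAND1 and 0.0411 to 0.0629 for HAND2. The 95% intervals below are exact, except those of the HAND2 ratio over the HAND1 ratio, which use a normal approximation. All cover counting error only, since PCR copies of a molecule are counted again and each arm and day was sampled once. In bulk RNA, fewer cells that express a gene and less RNA per cell cannot be told apart.

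HAND1 had no counts on Day 0 and 7 counts on Day 1 (0.22 FPKM). On Day 2 it had 1546 counts, an FPKM of 44.9 (42.7 to 47.2), which was 201-fold above Day 1 (97.4 to 501). HAND1 was therefore the paralog with a clear level before the arms divided. In NP-ctrl cells the HAND1 level was 671 FPKM on Day 3, 570 on Day 5, 748 on Day 7 and 298 by Day 10. In NP-IWP2 cells it was 492, 304, 323 and 132 on the same days. In passaged cells it was 103, 34.8, 98.4 and 77.2. On each of the 4 days NP-ctrl was the highest and passaged the lowest, and all 4 passaged libraries lay below all 8 static libraries.

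HAND2 had no counts on Day 0, 13 on Day 1 (0.20 FPKM) and 34 on Day 2 (0.47 FPKM, 0.323 to 0.652). Its Day 2 level was 0.567% of its highest level in the series, against 6.0% for HAND1. In NP-ctrl cells the HAND2 level was 28.1 FPKM on Day 3, 49.5 on Day 5, 70.8 on Day 7 and 66.1 by Day 10. In NP-IWP2 cells it was 16.8, 68.6, 82.9 and 58.6. In passaged cells it was 0.71 on Day 3, from 35 counts, then 62.0 on Day 5, 68.9 on Day 7 and 40.6 by Day 10. The passaged Day 3 library was the one library after Day 2 with HAND2 under 1 FPKM. From Day 5 on, all HAND2 levels lay between 40.6 and 82.9 FPKM, and the passaged level was between the static arms on Day 5 and the lowest of the arms on Day 10, and on Day 7 it was below NP-IWP2 and within counting error of NP-ctrl.

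**Figure D1:**
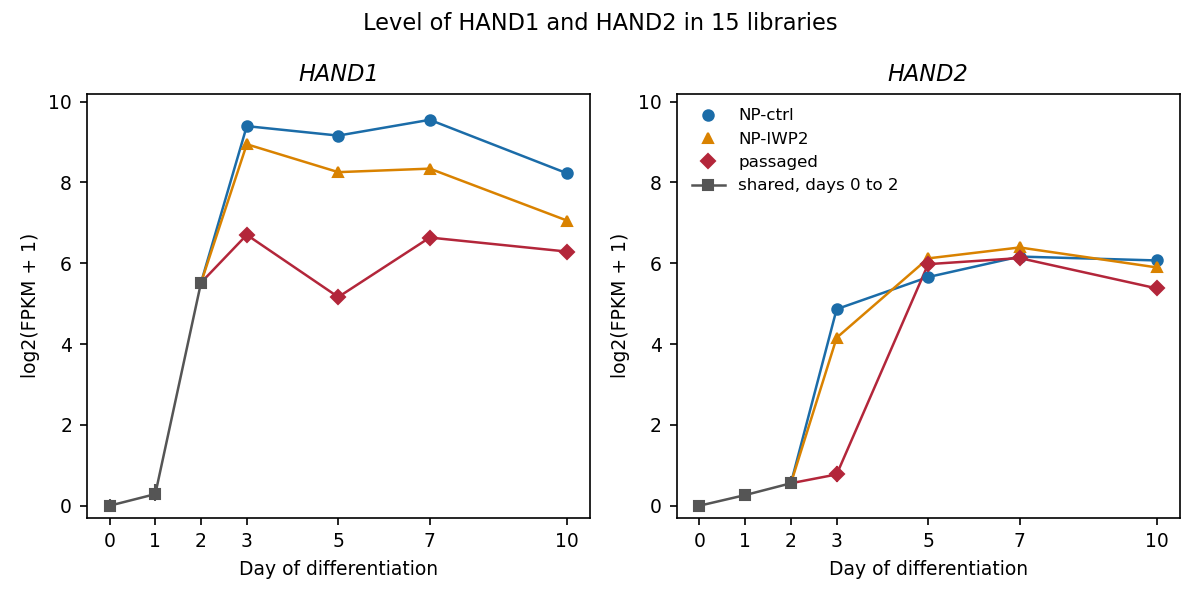
Level of HAND1 (left) and HAND2 (right) as log2(FPKM + 1) against day of differentiation, 1 library per point, with 95% counting intervals that are mostly smaller than the symbols. Passaged cells are lowest for HAND1 on every day from Day 3, whereas for HAND2 they are far below the static arms on Day 3 (0.71 FPKM), between them on Day 5, close to NP-ctrl on Day 7 and the lowest on Day 10.

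Ordered by level, the HAND1 libraries ran from NP-ctrl Day 7 (748 FPKM) through NP-ctrl Days 3 and 5 and NP-IWP2 Day 3 to NP-IWP2 Day 7. Below these, NP-IWP2 Day 5 and NP-ctrl Day 10 differed by a ratio of 1.02, within counting error (0.987 to 1.05). Passaged Days 3 and 7 also lay within counting error of each other (1.05, 0.991 to 1.11). Passaged Day 5 (34.8 FPKM) was the only library after Day 2 with a HAND1 level under that of Day 2, which was 1.29-fold higher (1.19 to 1.40). For HAND2 the order began with NP-IWP2 Day 7 (82.9 FPKM), followed by NP-ctrl Day 7, passaged Day 7, NP-IWP2 Day 5 and NP-ctrl Day 10, and neighbours in this run of 4 lay within counting error of each other. At the lower end, passaged Day 3 and Day 2 were not separated (ratio 1.52, 0.923 to 2.52).

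The first comparison asked how far replating moved each paralog from static culture. HAND1 in passaged cells was 0.154 of the NP-ctrl level on Day 3 (0.147 to 0.160), 0.0611 on Day 5 (0.0571 to 0.0653), 0.132 on Day 7 (0.126 to 0.137) and 0.259 by Day 10 (0.246 to 0.272). HAND1 was thus 6.50-fold, 16.4-fold, 7.60-fold and 3.87-fold lower, with the deepest gap on Day 5. HAND2 in passaged cells was 0.0253 of the NP-ctrl level on Day 3 (0.0175 to 0.0353), which is 39.6-fold lower. On Day 5 the HAND2 ratio was 1.25 (1.19 to 1.32), on Day 7 it was 0.974 (0.930 to 1.02) and on Day 10 it was 0.613 (0.581 to 0.648). The Day 7 ratio of HAND2 did not differ from 1 by counting error, and its side of 1 depended on the scaling, 1.08 with TMM-scaled counts and 0.887 with TPM. HAND1 thus lay well below NP-ctrl on all 4 days, and HAND2 on Day 3, with a smaller gap on Day 10.

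On log2(FPKM + 1), where a difference of at least 1 was counted, 3.48%, 4.42%, 8.29% and 11.7% of the 21206 genes were lower in passaged than in NP-ctrl cells on Days 3, 5, 7 and 10. HAND1 was among them on all 4 days, with differences of -2.69, -3.99, -2.91 and -1.94, and HAND2 on Day 3, with -4.09. No gene above the filter was further below NP-ctrl than HAND2 on Day 3, and 17 were further below than HAND1. These are the contrasts in which the genes were noticed, so nothing is read from the shares.

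**Figure D2:**
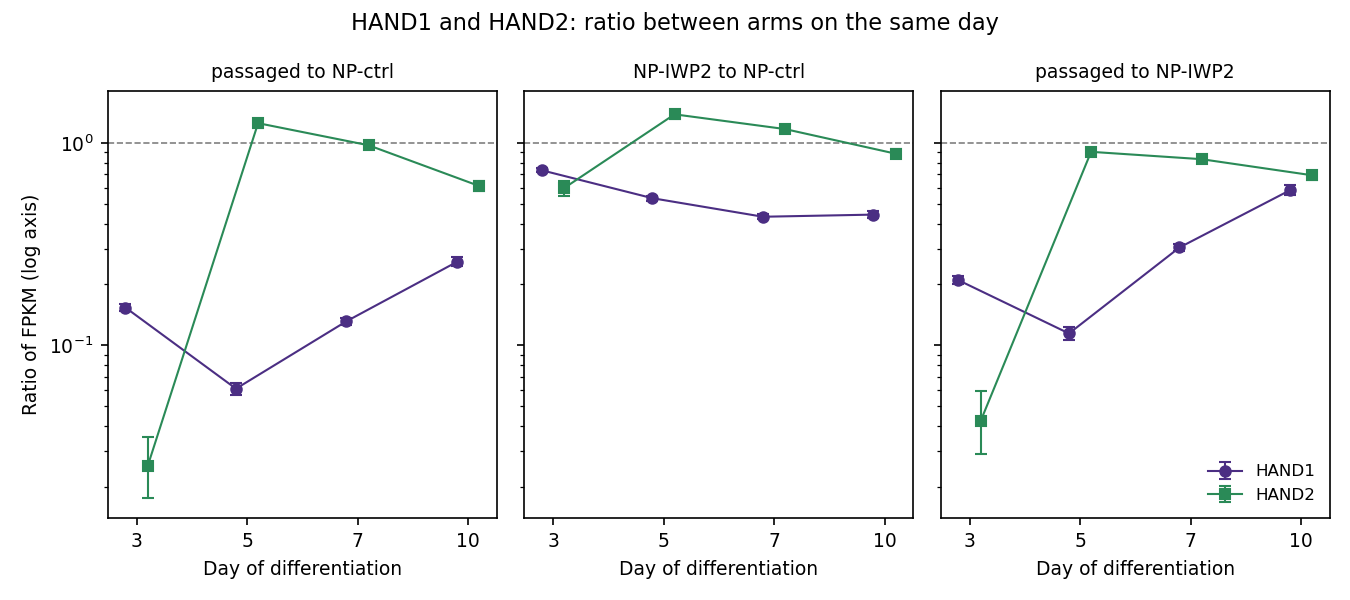
Ratio of FPKM between arms on the same day for HAND1 (circles) and HAND2 (squares), on a log axis, with 95% counting intervals and a dashed line at 1. From Day 3 to Day 5 the ratio of passaged to NP-ctrl goes from 0.154 to 0.0611 for HAND1 and from 0.0253 to 1.25 for HAND2.

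The same 2 genes were then compared between IWP2-treated and untreated static cells, which share the NP-ctrl libraries with the comparison above. HAND1 in NP-IWP2 cells was 0.733 of the NP-ctrl level on Day 3 (0.716 to 0.750), 0.533 on Day 5, 0.432 on Day 7 and 0.443 by Day 10 (0.425 to 0.461). All 4 intervals for HAND1 lay below 1. HAND2 was 0.599 of NP-ctrl on Day 3 (0.550 to 0.651), 1.39 on Day 5 (1.32 to 1.46), 1.17 on Day 7 (1.12 to 1.22) and 0.886 by Day 10 (0.843 to 0.930). HAND2 thus lay below NP-ctrl on Days 3 and 10 and above it on Days 5 and 7, and this held under 4 other scalings. On log2(FPKM + 1), 0.858%, 1.55%, 4.28% and 5.64% of genes were lower by at least 1 in NP-IWP2 cells on Days 3, 5, 7 and 10. HAND1 was among them on Day 7 (-1.21) and Day 10 (-1.17), and HAND2 on no day.

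Set directly against NP-IWP2, HAND1 in passaged cells was 0.210 of the level on Day 3 (0.201 to 0.219), 0.115 on Day 5 (0.107 to 0.123), 0.305 on Day 7 (0.291 to 0.318) and 0.584 by Day 10 (0.553 to 0.617). HAND2 was 0.0422 on Day 3 (0.0292 to 0.0592), 0.904 on Day 5 (0.862 to 0.948), 0.832 on Day 7 (0.797 to 0.868) and 0.693 by Day 10 (0.656 to 0.731). Both genes were lower in passaged cells on every day, with HAND2 ratios of 0.693 to 0.904 after Day 3. Of all genes, 5.05%, 4.02%, 4.38% and 7.01% were lower by at least 1 on log2(FPKM + 1) on Days 3, 5, 7 and 10. HAND1 was among them on Days 3, 5 and 7 and HAND2 on Day 3.

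The timing of the first step after Day 2 also differed. From Day 2 to Day 3 the HAND1 level was multiplied by 15 in NP-ctrl cells (14.2 to 15.8), by 11.0 with IWP2 (10.4 to 11.6) and by 2.30 after replating (2.16 to 2.45). HAND2 was multiplied by 60.3 in NP-ctrl cells (43.0 to 87.4), by 36.1 with IWP2 (25.6 to 52.5) and by 1.52 after replating (0.923 to 2.52). In passaged cells the step of HAND2 was not detectable at this depth, while that of HAND1 was. A step up of at least 1 on log2(FPKM + 1) was taken by 4.36% of genes in NP-ctrl cells, 6.06% with IWP2 and 6.78% after replating. Both paralogs took it in the 2 static arms and HAND1 alone of the pair in passaged cells.

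From Day 3 to Day 5 the paralogs moved in opposite directions in passaged cells. HAND2 was 87.3-fold higher on Day 5 than on Day 3 (62.6 to 126), and HAND1 was 2.96-fold lower, a ratio of 0.338 (0.313 to 0.365). HAND2 was 1 of the 5.26% of genes with a step up of at least 1 in this interval, and 5 genes had a larger step. In static culture the split had the same sign and was smaller. HAND2 was multiplied by 1.76 in NP-ctrl (1.65 to 1.87) and by 4.07 in NP-IWP2 (3.77 to 4.40), and HAND1 by 0.850 (0.832 to 0.868) and 0.619 (0.601 to 0.637). In passaged cells HAND1 was then 2.82-fold higher on Day 7 than on Day 5 (2.62 to 3.05), a level within counting error of its own Day 3, and on Day 10 it was at 0.784 of that Day 7 level (0.739 to 0.832). After replating, HAND2 was thus above the NP-ctrl level of the same day on Day 5 and below it again on Day 10, while HAND1 reached at most 0.259 of it, on Day 10. The NP-ctrl level itself moved, since HAND1 there was on Day 10 at 0.399 of its Day 7 level (0.388 to 0.410), and passaged HAND1 on Day 10 was no higher than on Day 7.

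HAND2 was compared with HAND1 within each library, which removes the library total from the ratio. By FPKM the ratio of HAND2 to HAND1 was 0.877 on Day 1, from few counts (0.325 to 2.60), and 0.0104 on Day 2 (0.00717 to 0.0146). It was 0.0419, 0.0868, 0.0946 and 0.222 in NP-ctrl cells on Days 3, 5, 7 and 10. It was 0.0342, 0.225, 0.256 and 0.443 in NP-IWP2 cells. In both static arms the ratio was larger on each later day and HAND1 remained the higher gene throughout. In passaged cells the ratio was 0.00689 on Day 3 (0.00478 to 0.00960), not separated by counting error from Day 2, then 1.78 on Day 5 (1.65 to 1.92), then 0.700 on Day 7 and 0.526 by Day 10. Passaged Day 5 was the 1 library whose interval lay above 1 by FPKM. By counts, with no division by gene length, passaged Day 5 was at 3.77 (3.50 to 4.06), Day 7 at 1.48 (1.41 to 1.56) and Day 10 at 1.11 (1.05 to 1.18), so that the interval lay above 1 in 3 libraries. Day 1 was at 1.86 by counts, from 13 and 7 counts, with an interval that included 1 (0.689 to 5.50). The length scaling matters here because the methods name a long-read kit beside short-read tools, and in long reads counts need not grow with length. With HAND2 length cut to the 2734 exonic bases outside the exons of the antisense gene HAND2-AS1, every ratio is multiplied by the same factor, and passaged Day 5 was again the 1 library whose interval lay above 1.

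**Figure D3:**
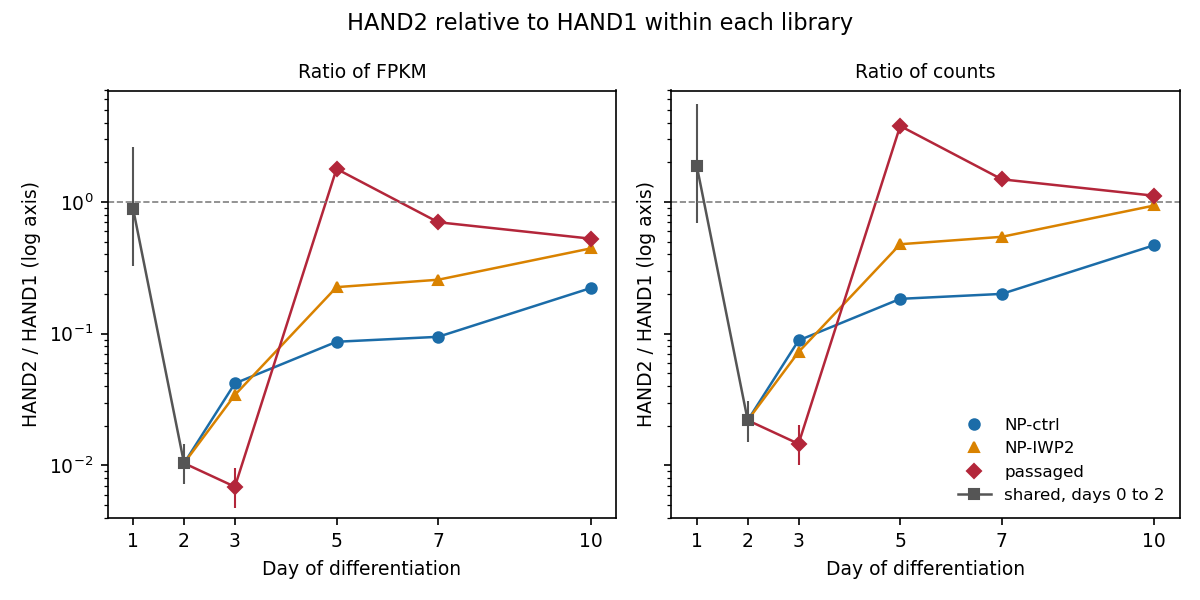
Ratio of HAND2 to HAND1 within each library against day, by FPKM (left) and by counts (right), on log axes with 95% counting intervals and a dashed line at 1. In both panels passaged cells go from a ratio on Day 3 that overlaps Day 2 in its interval to above 1 on Day 5, and by counts they stay above 1 on Days 7 and 10.

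The shift between arms was also expressed as the HAND2 ratio over the HAND1 ratio, which does not depend on gene length or library total. For passaged against NP-ctrl it was 0.164 on Day 3 (0.117 to 0.230), 20.5 on Day 5 (18.9 to 22.3), 7.41 on Day 7 (6.96 to 7.88) and 2.37 by Day 10 (2.20 to 2.55). For NP-IWP2 against NP-ctrl it was 0.817 on Day 3 (0.749 to 0.891), 2.60 on Day 5, 2.71 on Day 7 and 2.00 by Day 10 (1.88 to 2.13). For passaged against NP-IWP2 it was 0.201 on Day 3 (0.143 to 0.283), 7.90 on Day 5 (7.26 to 8.59), 2.73 on Day 7 and 1.19 by Day 10 (1.10 to 1.28). In all 3 comparisons HAND2 was thus lower relative to HAND1 on Day 3 and higher relative to HAND1 on Days 5, 7 and 10. The comparisons share libraries, so these are not independent.

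HAND2 shares its locus with HAND2-AS1 (ENSG00000237125, chr4:173527270-173659696, plus strand), a long non-coding RNA that runs from within HAND2 away from it. Of the exonic bases of HAND2, 867 (24.1%) also lay in exons of HAND2-AS1, and 39 of the 65 annotated HAND2-AS1 transcripts began within the 250 bases before the HAND2 start shown above. Whether counting used the strand was not stated, so reads from the shared bases cannot be assigned with certainty. HAND2-AS1 had 0.51, 1.51, 4.07 and 5.73 FPKM in NP-ctrl on Days 3, 5, 7 and 10, 0.58, 2.04, 3.29 and 6.29 in NP-IWP2, and 0.11, 2.22, 2.53 and 3.63 in passaged cells. Like HAND2, it was low in passaged cells on Day 3, at 0.210 of NP-ctrl (0.139 to 0.310), and above NP-ctrl on Day 5, at 1.47 (1.31 to 1.65). Its highest level was on Day 10 in every arm, whereas that of HAND2 was on Day 7. HAND2 had 9.41 counts for each HAND2-AS1 count in NP-ctrl on Day 3 and 1.96 on Day 10, and in passaged cells 1.13 on Day 3, 4.73 on Day 5 and 1.9 on Day 10.

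**Figure D4:**
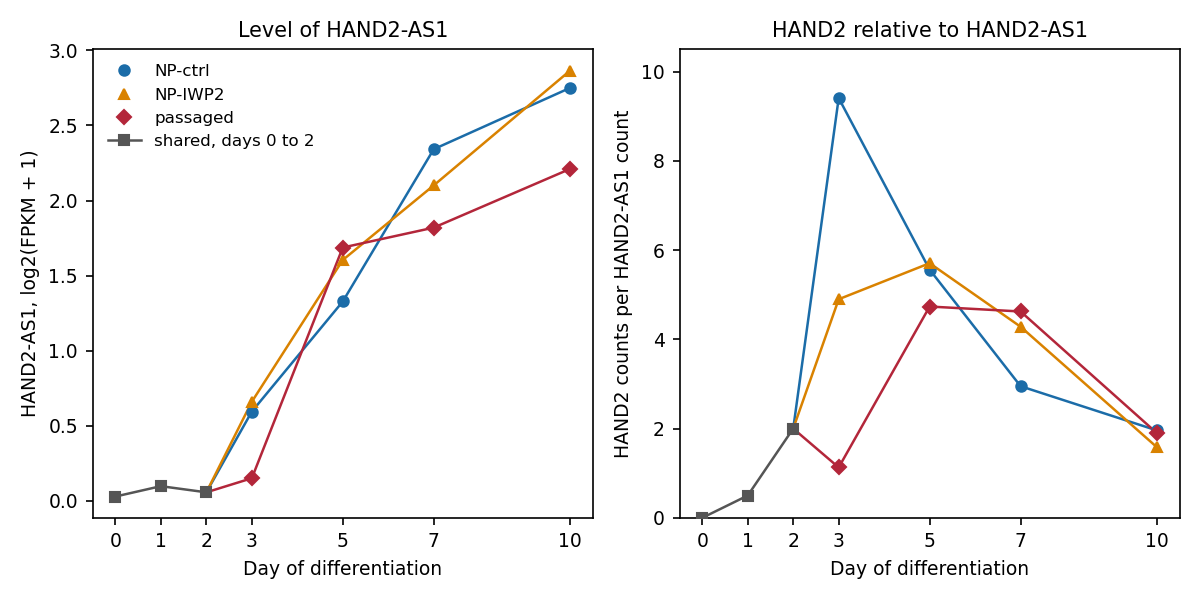
Left, level of HAND2-AS1 as log2(FPKM + 1) against day. Right, HAND2 counts for each HAND2-AS1 count in the same library. HAND2-AS1 is highest on Day 10 in each arm, and the ratio is highest in NP-ctrl on Day 3 (9.41) and between 1.58 and 1.96 in all 3 arms on Day 10.

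The other neighbours varied over a smaller range. SAP30L, a subunit gene of histone deacetylase complexes 13919 bases from HAND1, lay between 4.41 and 9.52 FPKM in the 15 libraries. Its Pearson correlation with HAND1 on log2(FPKM + 1) was 0.860 over these 15 libraries, in each of which both genes share day and depth. SAP30, its paralog near HAND2, lay between 5.85 and 14.2 FPKM and correlated with HAND2 at -0.58. LARP1, an RNA-binding protein gene beyond HAND1, ranged from 21.7 to 50.7 FPKM (correlation with HAND1 -0.34), FBXO8 beyond HAND2 from 2.85 to 10.6 (0.838 with HAND2), and SCRG1 stayed at or under 0.61 (0.584 with HAND2).

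The genes known to work with or upstream of HAND factors were tested as 6 lists with 55 genes, of which 53 were above the filter. Arms were compared with edgeR over the 12 libraries that follow Day 2, with day as a block, so that the spread is that between days. Between passaged and NP-ctrl cells 3 of the 53 genes were higher and 3 lower at a Benjamini-Hochberg adjusted p under 0.05, against 4.40% of all genes called. Their median log2 fold change was 0.12, against -0.0025 for all genes. Leaving out 1 day moved the number called to 20 without Day 3, 1 without Day 5, 2 without Day 7 and 3 without Day 10. Over all 21206 genes the number called moved too, from 933 to 2373, 283, 133 and 323 in the same order. Between NP-IWP2 and NP-ctrl cells edgeR called 0 of 53 (0.0189% of all genes called), with 9 at an unadjusted p under 0.05 (1009 of all 21206 genes). DESeq2 called 2 and limma 0 there, and edgeR called 1 without Day 3 (59, 0 and 35 of all genes). The median of the 53 was 0.19 against -0.01. Between passaged and NP-IWP2 cells 2 were called, both lower (1.33% of all genes called), with a median of 0.01 against 0.02. Leaving out 1 day gave 9 without Day 3 and 0 without Day 5, 7 or 10. Over all genes these 4 fits called 675, 51, 13 and 156.

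The dimer partners were present throughout. TCF3 lay between 15.3 and 64.2 FPKM, TCF4 between 3.16 and 13.9, and TCF12 between 11.7 and 18.9 across the 15 libraries, and none of the 3 was called in any comparison. The passaged to NP-ctrl log2 fold change was -0.08 for TCF3, -0.50 for TCF4 and 0.15 for TCF12. Of the 4 ID genes, which hold E-proteins inactive, none was called. ID4 had a log2 fold change of 1.19 ± 0.33 (SE) in passaged against NP-ctrl cells (edgeR adjusted p = 0.0656) and ID1 0.79 ± 0.29 (edgeR adjusted p = 0.155).

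Of the Twist-family relatives of HAND1 and HAND2, 6 of 8 were above the filter, and TCF21, an epicardial and fibroblast factor, was called. Its level was 7.69, 7.29, 5.66 and 6.91 FPKM in NP-ctrl on Days 3 to 10 and 1.63, 1.09, 0 and 0 in passaged cells, a log2 fold change of -3.80 ± 0.92 (SE, edgeR adjusted p = 0.0419). TCF21 was thus lower in passaged cells on all 4 days, as HAND1 was. Its sign held under 10 alternatives and its call under 5, being lost without Day 5 (edgeR adjusted p = 0.138), without Day 7 (0.200) and without Day 10 (0.0786), with only the 2 arms compared and with no day block. TWIST1, a mesenchymal factor, had a log2 fold change of -1.13 ± 0.48 (adjusted p by edgeR 0.229). FERD3L had no counts in any library and PTF1A stayed at or under 0.43 FPKM.

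Among the 17 cardiac transcription factors, 2 were higher in passaged than NP-ctrl cells and none lower. MEF2C, a factor of muscle gene activation and of the second heart field, had 0.14, 16.4, 34.4 and 40.9 FPKM in passaged cells and 0.08, 2.19, 3.75 and 3.89 in NP-ctrl, a log2 fold change of 2.90 ± 0.35 (SE, edgeR adjusted p = 0.0015). MYOCD, the coactivator of SRF, had 3.76, 16.1, 86.3 and 51.6 FPKM in passaged cells and 1.64, 6.67, 5.28 and 5.54 in NP-ctrl (2.36 ± 0.49, edgeR adjusted p = 0.0233). Unlike HAND1, MYOCD was higher in passaged than NP-ctrl cells on all 4 days and MEF2C on Days 5, 7 and 10. On Day 3 MEF2C was far under 1 FPKM in either arm. Both genes were also above NP-ctrl in NP-IWP2 cells on Days 5, 7 and 10, though not called there. Their NP-IWP2 levels on these days were 8.82, 21.4 and 20.9 FPKM for MEF2C and 8.78, 27.4 and 23.6 for MYOCD. MEF2C was called under 7 of 10 alternatives and lost with limma (adjusted p = 0.0764), with only the 2 arms compared and with no day block. MYOCD was called under 4, and lost with limma (adjusted p = 0.0794), without Day 5 (edgeR adjusted p = 0.0677), without Day 7 (0.138) and without Day 10 (0.111), with only the 2 arms and with no day block. NKX2-5, an early cardiac homeobox factor, had 1.57, 110, 252 and 287 FPKM on Days 3, 5, 7 and 10 in passaged cells. It had 2.01, 1.31, 19.9 and 26.2 in NP-ctrl and 1.01, 7.8, 126 and 92.3 in NP-IWP2 cells. Between passaged and NP-ctrl cells its log2 fold change was 3.51 ± 0.91 (edgeR adjusted p = 0.0556), and without Day 3 it was called (edgeR adjusted p = 0.00109). TBX5, a factor of the first heart field and left ventricle, was lower in passaged than NP-IWP2 cells by edgeR (adjusted p = 0.0205, log2 fold change -2.33 ± 0.39), at 0.51, 0.53, 2.34 and 5.43 FPKM against 0.68, 2.80, 28.8 and 34.9. The TBX5 call held under 4 of 10 alternatives and was lost without Day 5, 7 or 10 (edgeR adjusted p = 0.147, 0.181 and 0.0927). GATA4 was not called in any comparison and lay between 26.8 and 139 FPKM in the 12 libraries.

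Of the 20 genes of the BMP and endothelin signals, 1 was higher and 2 lower in passaged than NP-ctrl cells. BMP4, a ligand that acts upstream of HAND1, had 74.9, 154, 94.8 and 45.2 FPKM in NP-ctrl and 29.9, 30.9, 27.0 and 3.33 in passaged cells, a log2 fold change of -2.13 ± 0.35 (SE, edgeR adjusted p = 0.00851). It was also lower in passaged than NP-IWP2 cells (-1.76 ± 0.35, edgeR adjusted p = 0.0381). MSX1, a homeobox target of BMP signaling, had 78.5, 94.4, 166 and 55.8 FPKM in NP-ctrl and 29.9, 9.6, 6.45 and 5.83 in passaged cells (-2.99 ± 0.46, edgeR adjusted p = 0.00592). BMP7, another BMP ligand, was higher, at 19.1, 26.2, 46.2 and 46.3 FPKM in passaged cells against 8.48, 6.59, 9.79 and 8.45 in NP-ctrl (1.96 ± 0.34, edgeR adjusted p = 0.0106). Like HAND1, BMP4 and MSX1 were lower in passaged than NP-ctrl cells on each of the 4 days. In NP-IWP2 cells MSX1 had 29.9, 43.0, 48.8 and 9.76 FPKM and BMP7 10.35, 6.84, 39.95 and 30.0. These levels lay between NP-ctrl and passaged cells, apart from MSX1 on Day 3, which was level with passaged cells. With only the 2 arms compared BMP4 (edgeR adjusted p = 0.0730) and MSX1 (0.0573) were not called, and with no day block none of the 3 was. Against NP-ctrl, BMP4 also lost its call without Day 5 or Day 7 (edgeR adjusted p = 0.0766 and 0.0648), MSX1 without Day 5 (0.0532), and BMP7 without Day 5, 7 or 10 (0.0509, 0.0700 and 0.0545) and with limma (0.0539). Against NP-IWP2, BMP4 lost it without Day 5, 7 or 10 (edgeR adjusted p = 0.241, 0.181 and 0.0551). The sign of all 3 held under 10 alternatives. Whether the ligands bear on HAND1 was not tested.

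**Figure D5:**
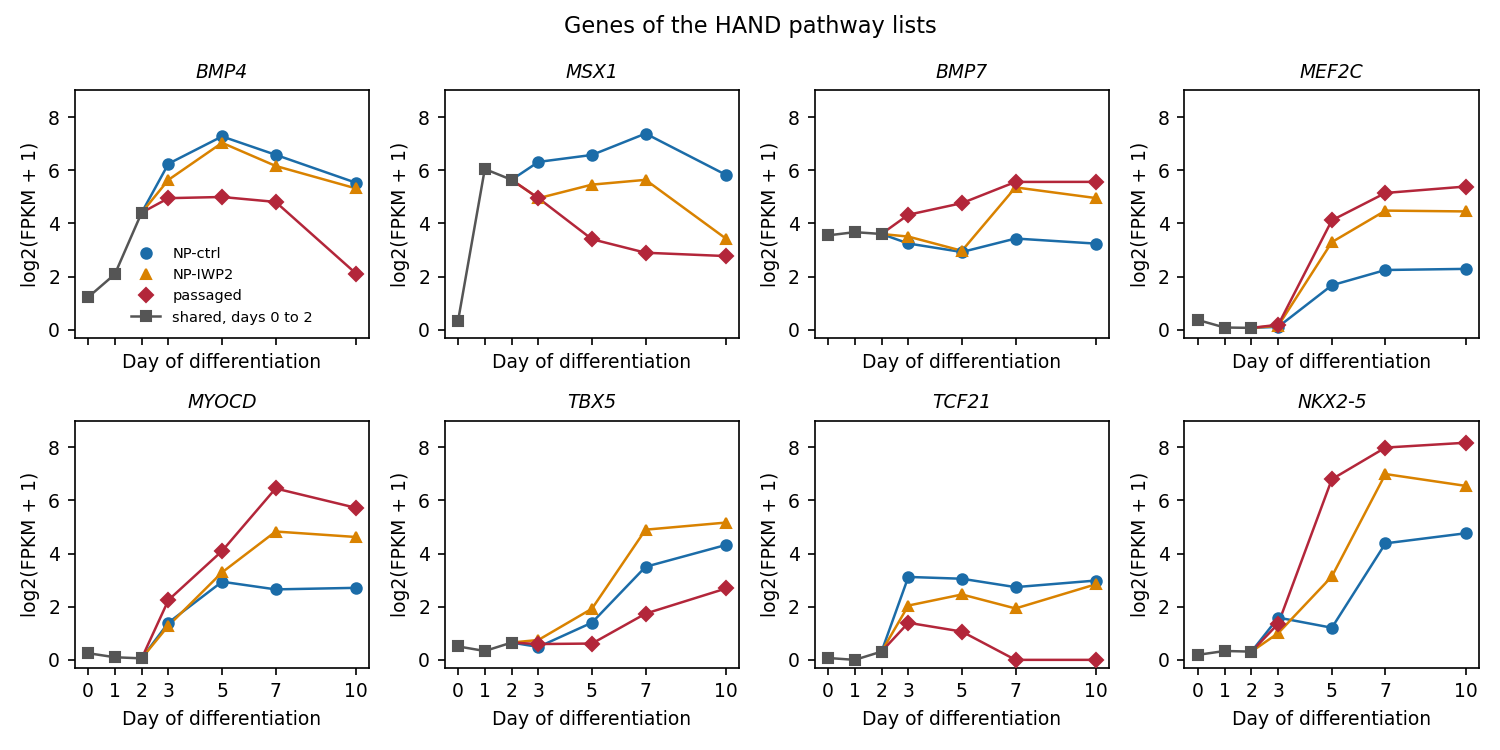
Level as log2(FPKM + 1) against day for 8 genes of the lists, 1 library per point. BMP4, MSX1 and TCF21 are lower in passaged than NP-ctrl cells on each day. BMP7 and MYOCD are higher on each day and MEF2C on Days 5, 7 and 10. TBX5 is lower in passaged than in NP-IWP2 cells. NKX2-5 is plotted beside them although its edgeR adjusted p of 0.0556 missed the threshold.

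Of 3 described HAND targets none was called between any pair of arms. NPPA, the natriuretic peptide gene, reached 4.64 FPKM in passaged and 2.71 in NP-IWP2 cells on Day 10. In NP-ctrl it was at most 0.47 after Day 2 (passaged to NP-ctrl log2 fold change 1.72 ± 0.68, edgeR adjusted p = 0.192). Its highest count in any library was 79, and in passaged cells it was 0.60 FPKM on Day 7. MYH6 and TMSB4X had log2 fold changes of 2.75 and -0.64. MYH6 shares sequence with MYH7, so its counts are uncertain.

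Markers of cells in which HAND genes are known were summed per library, and the sums are given below for NP-ctrl, NP-IWP2 and passaged cells in that order. The 7 lateral plate and splanchnic mesoderm markers, of which BMP4 is also on the signal list, summed to 304, 246 and 161 FPKM on Day 3, 405, 341 and 107 on Day 5, 297, 213 and 74.6 on Day 7 and 176, 193 and 134 on Day 10. Passaged cells had the lowest sum on all 4 days, as they did for HAND1. Single members differed on Day 10, when KDR, a receptor that endothelial cells also express, was 119 FPKM in passaged cells against 93.0 and 100.4, and OSR1 was 2.66 against 1.49 and 0.29, while FOXF1, of splanchnic mesoderm, was 0.06 against 5.34 and 1.85. The 7 epicardium markers summed to 10.0, 5.15 and 6.48 FPKM on Day 3, 25.0, 22.5 and 12.8 on Day 5, 68.5, 46.2 and 2.78 on Day 7 and 124, 91.9 and 0.87 on Day 10. In passaged cells WT1, TBX18, UPK3B and MSLN of this list stayed under 1, whereas ALDH1A2, an enzyme of retinoic acid synthesis, was higher there on Day 3 (3.04 against 1.06 and 0.50) and Day 5 (9.28 against 0.53 and 0.86). The 4 liver and yolk sac markers summed to 0.50, 1.05 and 0.71 FPKM on Day 3, 23.0, 10.9 and 1.05 on Day 5, 349.8, 173 and 1.08 on Day 7 and 3132, 913 and 1.99 on Day 10. Both the epicardium and the liver sums were thus lowest in passaged cells on Days 5, 7 and 10 but not on Day 3, and in NP-ctrl cells they were higher on Day 10 than on Day 3 while HAND1 was lower. The part of these cells in the HAND1 levels was not tested. The 7 amnion and trophoblast markers, cells that can also hold HAND1, summed to 1.10 to 36.4 FPKM in NP-ctrl, 1.23 to 17.6 with IWP2 and 2.04 to 20 in passaged cells, with GCM1 and TFAP2B under 1 in every library.

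In the same order of arms, the 6 cardiomyocyte markers summed to 16.5, 12.4 and 17.0 FPKM on Day 3, 585, 757 and 671 on Day 5, 762, 2972 and 5044 on Day 7 and 612, 1986 and 5169 on Day 10. This sum was highest in passaged cells on Days 7 and 10, and below NP-IWP2 on Day 5. On Days 7 and 10 it came mostly from ACTC1, MYL7 and MYH6, and the counts of MYH6 are uncertain. The other markers were also highest in passaged cells on these days, and on Day 10 they were closer to NP-IWP2. On Day 7 TTN was 21.4 FPKM in passaged against 13.1 in NP-IWP2 cells and ACTN2 45.0 against 35.8. Neither was closer to NP-IWP2 than MYH6 was, at 778 against 633. On Day 10 TNNT2 was 55.5 FPKM in passaged against 42.75 in NP-IWP2 cells, ACTN2 53.55 against 38.91 and TTN 32.0 against 25.7. The 6 second heart field markers summed to 103, 86.5 and 133 FPKM on Day 3, 42.7, 78.5 and 193 on Day 5, 24.4, 65.5 and 104 on Day 7 and 17.6, 46.5 and 45.6 on Day 10. This sum was highest in passaged cells on Day 5, when HAND2 exceeded HAND1 by FPKM, and also above both static arms in passaged cells on Day 3, when HAND2 was lowest. Their part in the HAND2 level was not tested. The 5 sympathetic neuron markers summed to at most 14.1 FPKM in any library. The 5 endothelial markers summed to 93.3 to 166 FPKM in the static arms and 16.9 to 121 in passaged cells, mostly from KDR, which lateral mesoderm also expresses, while PECAM1 stayed at or under 1.29. The 5 pluripotency markers summed to 1630 FPKM on Day 0, and on Day 3 to 319 in NP-ctrl cells, 312 with IWP2 and 505 after replating. LIN28A carried most of that difference (382 FPKM after replating against 194 and 174), whereas POU5F1 (48.0 against 82.1 and 76.0) and NANOG (0.19 against 0.57 and 1.04) were lower after replating. The 5 primitive streak markers summed to 129 and 200 FPKM in the static arms on Day 3 and 13.1 in passaged cells, with MESP1 at 41.8 and 39.2 FPKM in the static arms and 2.59 in passaged cells on the day when HAND2 was low in passaged cells. Its part in the HAND2 level was not tested.

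HAND1 and HAND2 correlated with each other at 0.723 (Pearson, log2(FPKM + 1), 15 libraries, in each of which both genes share day and depth). Among 13874 protein-coding genes HAND2 ranked 853 by likeness to HAND1, and HAND1 ranked 1560 by likeness to HAND2. The 5 genes most like HAND1 were LRRC41 (0.969), ZNF764 (0.962), PMM1 (0.946), ACTR1B (0.946) and BBS2 (0.945). The 5 most like HAND2 were ZNF599 (0.950), PPP3CC (0.947), ZSCAN26 (0.941), DACT3 (0.941) and NID2 (0.940). Of these NID2, a basement membrane protein gene, reached the highest level, 210 FPKM in NP-ctrl on Day 7, and the other 4 stayed at or under 21.9 FPKM, DACT3 running from 0.01 to 21.9. The 50 genes most like HAND1 and the 50 most like HAND2 had 0 genes in common.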

How the data were processed

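The members and the gene lists were chosen with earlier results of these data known. Per the submitters' processing notes and the study's methods, the authors trimmed reads with Cutadapt (1.9.1), aligned them with HISAT2 (2.0.1, hg38) and counted them per gene with HTSeq (0.6.1), and DESeq2 was also used. The deposited values are whole-number counts per gene and FPKM, which the authors computed from these counts, the exonic gene length (in the same deposited table, in bases) and the total count. The methods name a long-read kit (SMRTbell) beside these short-read tools, which puts the length scaling in doubt, and the strand setting of the counting was not stated. Columns of the authors' own comparisons were not used.

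Of 60605 genes, 60463 matched GENCODE release 44 by identifier and 93.8% of these had the same position, so coordinates are on GRCh38. Ratios between libraries used counts over total counts with exact (Clopper-Pearson) 95% intervals. Intervals of the HAND2 ratio over the HAND1 ratio used a normal approximation on the log scale. Differences between libraries used log2(FPKM + 1), with a pseudocount of 1, which understates changes of low genes. Lists were tested with the quasi-likelihood test of edgeR 4.0.16 (R 4.3.3, TMM normalization, arm + day, 12 libraries, Benjamini-Hochberg adjusted p under 0.05 over 21206 genes). The libraries of an arm are different days and the block removes the level of each day. The p-values thus measure how arm differences vary from day to day, which may be within 1 culture series. On simulated counts for passaged against NP-ctrl, with 200 of 21206 genes changed 4-fold, edgeR recovered 169 and made 11 false calls. The changed genes were drawn from those above a floor of mean count and changed alike on every day. Genes of the lists differed by day, so these numbers do not give the recovery or false calls in the data. DESeq2 1.42.0 and limma 3.58.1 were alternatives. Named genes were both members, their neighbours, list genes past the test or defining a list, and the 5 protein-coding genes most like each member. FOXF1, MESP1, KDR, ALDH1A2, LIN28A and the other markers named singly, and TWIST1, NKX2-5, NPPA, ID1 and ID4 among the uncalled list genes, were named after their values were seen.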

Additional observations from a re-analysis of the deposited data

Results flagged for a closer look

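The ratio of HAND2 between passaged and NP-ctrl cells changed side between days, with 0.0253 on Day 3, 1.25 on Day 5 and 0.613 on Day 10, each with a counting interval that excluded 1. The ratio of HAND2 between NP-IWP2 and NP-ctrl cells did so too, with 0.599 on Day 3, 1.39 and 1.17 on Days 5 and 7, and 0.886 on Day 10. With 1 library per arm and day, the difference between days was not tested.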

How the results depend on the processing

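Each ratio rests on a single pair of libraries, so a second culture could move it beyond the counting intervals. Arms could be paired by day alone, through the day block of the edgeR fit. Under 4 other scalings the 24 ratios of HAND1 and HAND2 between arms gave 96 values, of which 59 stayed inside the counting interval, 0 changed from one side of 1 to the other with both intervals excluding 1, and the largest change was 21.7%. HAND1 in passaged relative to NP-ctrl cells was 0.144, 0.146 and 0.292 on Days 3, 7 and 10 with TMM, 0.144, 0.144 and 0.287 with median-of-ratios scaling, and 0.187, 0.12 and 0.212 with TPM. HAND2 was 1.08 and 0.693 on Days 7 and 10 with TMM, 1.07 and 0.681 with median-of-ratios scaling, and 0.887 and 0.502 with TPM. Without genes of the mitochondrial genome the Day 10 ratios were 0.278 for HAND1 and 0.658 for HAND2.

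The interval of the HAND2 to HAND1 ratio lay above 1 in 1 library by FPKM and in 3 by counts, where passaged Day 7 (1.48) and Day 10 (1.11) crossed to above 1. That follows from the division by length. Of the 5 genes most like HAND1, 3 were kept with a pseudocount of 0.1 and 0 by Spearman, and for HAND2 2 and 1, so these names depend on the measure.

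The number of list genes called was 6, 0 and 2 for passaged against NP-ctrl, NP-IWP2 against NP-ctrl and passaged against NP-IWP2. Over all 21206 genes the main fit called 933, 4 and 282. DESeq2 gave 12, 2 and 5 (2150, 59 and 892 of all genes). With limma the passaged arm gave 3 against NP-ctrl and 0 against NP-IWP2 (152 and 6 of all genes). With no filter the counts were 20, 7 and 18, over 54 genes (2571, 372 and 1368 of 41457). With only the 2 arms compared they were 1, 4 and 1 (109, 277 and 163 of all genes). With no day block the passaged arm gave 0 against either static arm (1 and 2 of all genes). Leaving out 1 day gave 1 to 20, 0 to 1 and 0 to 9 (133 to 2373, 0 to 35 and 13 to 675 of all genes). The number called thus moved with the setting over all genes as well. Median-of-ratios scaling in edgeR gave the same 3 counts. The cause of these moves was not otherwise tested.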
